A study of Mus musculus with 40 samples.

Results

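Transcripts of 7 genes were followed across mouse branching lung organoids and embryonic lung tips: the simple epithelial keratins Krt7, Krt8, Krt18 and Krt19, and Sfn, Perp and Lgals3, which accompany them in transitional epithelial states. The genes were chosen by name, after measured values of these samples were known, and the values that led to the choice included Krt8, Krt18, Krt19 and Perp in the factor omissions. They are 7 of the 55260 gene symbols listed in each of 4 tables and of the 55286 in a table of libraries labelled LO, and all 7 passed every filter on low values. The values are TPM, a transcript's share of all transcripts scaled by its length to a fixed total, in 40 libraries of bulk RNA.

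In the factor table ALL-FGF10, ALL-MTG and ALL-VC were set against ALL, with 2 numbered libraries each, and the minus sign was taken to mean that a factor was left out. In a second table, 2C+F10, 2C+MTG, 2C+VC and an unnumbered ALL were set against 2C, with 1 library each, and the plus sign was taken to mean an addition. Organoids grown for 11 to 32 days from E9.5 to E14 starting material (n = 10) were set against 4 samples of lung tip epithelium, 1 from each day between E10.5 and E13.5. The 8 cut pieces and 1 intact organoid, and the LO libraries at days 8, 11 and 18 and at day 11 with DCI, had 1 library each. The labels name FGF10 but do not spell out MTG, VC, 2C, DCI, LO or ALL, and they give no strain, genotype, sex or number of animals. They do not say that replicates came from separate cultures, so a p-value here speaks of the scatter among these libraries, which may be technical.

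Keratin filaments are built from pairs of a type II and a type I keratin, and in simple epithelia, such as the lining of the lung, these pairs are Krt8 or Krt7 with Krt18 or Krt19. In the adult mouse lung, injured alveoli hold Krt8-high transitional cells on the path from alveolar type 2 (AT2) to alveolar type 1 (AT1) cells, and raised Krt7, Krt19, Sfn and Lgals3 have been described in such cells. Sfn encodes 14-3-3 sigma, a p53-induced brake on the cell cycle; Perp encodes a p53- and p63-induced membrane protein of desmosomes, the junctions to which keratin filaments attach; Lgals3 encodes galectin-3, a lectin that binds beta-galactosides.

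On GRCm38, 3 members lie on chromosome 15, at the type II keratin cluster. Krt7 spans chr15:101411043-101430313 on the plus strand, Krt8 spans chr15:101996698-102004482 on the minus strand and Krt18, the type I gene beside the type II cluster, spans chr15:102028180-102032027 on the plus strand. Krt8 and Krt18 are divergent, with 23697 bases and 0 annotated genes between them. Krt19 lies at chr11:100140810-100148665, Sfn at chr4:133600556-133602168, Perp at chr10:18845020-18857073 and Lgals3 at chr14:47367751-47386160. All 7 are protein-coding. RefSeq promoters on GRCm38.p6 matched 5 of 7 members. The 250 bases before the start of Krt8 and Krt18 are shown because these filament partners correlated in each of 3 sets of libraries, and those of Krt7 for comparison, as the other type II member. Capitals mark GC boxes, GGGCGG on either strand, and each window is given 5′ to 3′ on the gene's own strand (Krt8 chr15:102004343-102004592, Krt18 chr15:102027966-102028215, Krt7 chr15:101412153-101412402). The RefSeq start of each of the 3 lies inside the annotated gene span.
Krt8: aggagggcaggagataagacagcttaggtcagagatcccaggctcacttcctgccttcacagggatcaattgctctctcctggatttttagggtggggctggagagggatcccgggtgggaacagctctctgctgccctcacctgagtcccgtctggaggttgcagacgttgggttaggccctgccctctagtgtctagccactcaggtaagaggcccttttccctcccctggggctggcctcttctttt
Krt18: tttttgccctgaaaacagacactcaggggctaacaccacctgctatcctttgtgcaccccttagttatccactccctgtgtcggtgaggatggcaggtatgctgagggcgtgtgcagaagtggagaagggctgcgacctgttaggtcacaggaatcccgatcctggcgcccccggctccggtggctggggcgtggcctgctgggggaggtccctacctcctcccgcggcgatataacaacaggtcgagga
Krt7: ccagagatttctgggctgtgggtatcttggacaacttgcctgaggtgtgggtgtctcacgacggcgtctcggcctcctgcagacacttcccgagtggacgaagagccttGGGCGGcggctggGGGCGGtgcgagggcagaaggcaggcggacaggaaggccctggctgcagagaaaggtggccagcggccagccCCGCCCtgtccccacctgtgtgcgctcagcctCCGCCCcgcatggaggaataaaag
The Krt7 window held 4 GC boxes and was 66% G or C, against 58% in Krt8 and 60.4% in Krt18, which held 0. A GC box stood in 32.7% of the 32851 RefSeq promoter windows of the same length. Searches on both strands for TATAAA, for the AP-1 motif TGANTCA and for the TEAD motif GGAATG found 0 matches in the 3 windows, where 12.4, 6.75 and 12.6% of all windows held one. A match is a description of letters and not a binding site.

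The label of the libraries as lung epithelium was met by its markers. Epcam, Cdh1, Esrp1 and Nkx2-1 summed to 752 to 1273 TPM in the 40 libraries, and the basal cell genes Krt5, Krt14, Krt15 and Trp63 to at most 3.67 TPM. Globin genes summed to 1623 to 8390 TPM in tips and were listed at 0 in all 10 organoids. Libraries listed 13036 to 14418 genes at 1 TPM or more, and TPM keeps no sequencing depth, so counting error is unknown. In bulk RNA, fewer cells of a type and less RNA per cell cannot be told apart.

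The members fell into an abundant and a scarce tier. Krt18 was the highest member in 22 libraries, Krt8 in 17 and Krt19 in 1, the DCI library, and the lowest member was Perp in 20, Sfn in 16 and Lgals3 in 4. Krt8 and Krt18 also varied least. Krt18 ran from 144 TPM in ALL-FGF10 replicate 2 to 645 TPM in 2C+F10, a 4.49-fold span, and Krt8 spanned 5.14-fold between the same libraries. Krt7 spanned 7.41-fold. Perp spanned 35.7-fold, Krt19 40.3-fold, Sfn 51.1-fold and Lgals3 89.9-fold, the last between 154 TPM in the left-half piece and 1.71 TPM in the E13.5 tip. For Krt7, Krt19, Sfn and Perp the highest library of all 40 was LO day 11 with DCI. The lowest was a tip for Krt7, Krt19, Sfn, Perp and Lgals3.

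Type II and type I keratins stayed close to each other while their sum moved. The sum of the 4 keratins ran from 450.2 TPM in ALL-FGF10 replicate 2 to 2179 TPM in the DCI library, yet the ratio of type II (Krt7 plus Krt8) to type I (Krt18 plus Krt19) stayed between 0.729 and 1.40 with a median of 1.06. Within type I the balance shifted more: Krt19 was 0.0814 times Krt18 in the E10.5 tip and 1.81 times Krt18 in the DCI library, with a median of 0.337. Within type II, Krt7 was 0.317 times Krt8 in ALL-MTG replicate 1 and 1.05 times Krt8 in ALL-FGF10 replicate 2. The pseudogene Krt8-ps, which could share reads with Krt8, was listed at no more than 0.95 TPM. Opposite-strand genes that overlap Krt7 (Gm671, at most 5.41 TPM) and Krt8 (Gm36026, at most 1.54 TPM) were also low, and whether counting used strand is not given in the sources used here.

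The mean of every member was higher in organoids than in tips. Lgals3 differed most, at 12.9 to 52.1 TPM in organoids (median 26.3) against 2.27, 3.46, 4.99 and 1.71 TPM in tips, in order of stage. Its mean was 8.58-fold higher in organoids, a log2 difference of 2.73 ± 0.29 (SE, limma with Benjamini-Hochberg adjustment over 16779 genes, adjusted p = 7.6e-07). The groups did not overlap. Sfn had 6.82 to 16.4 TPM in organoids (median 11.2), against 4.32, 3.49, 2.32 and 2.69 TPM in tips by stage, again without overlap (log2 difference 1.51 ± 0.22, adjusted p = 2.6e-05). By limma 7 of 7 members were called higher at adjusted p under 0.05, in a comparison where 61.9% of all genes were called and 21.7% were called higher, so a call by itself sets no member apart. The median difference of the members was 1.29, against -0.20 over all genes.

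Among the type II keratins, Krt7 had 109 to 218 TPM in organoids (median 147) and 66.5, 68.7, 96.8 and 77.1 TPM in tips by stage, and every organoid exceeded every tip (0.94 ± 0.15, adjusted p = 5.9e-05). Krt8 had 195 to 347 TPM in organoids (median 272) against 177, 173, 200.3 and 182 TPM in tips, where the lowest organoid lay just under the highest tip (0.54 ± 0.15, adjusted p = 0.0050). Its type I partner Krt18 had 207 to 492 TPM in organoids (median 329) against 224, 189, 249 and 189 TPM in tips, with overlap (0.55 ± 0.19, adjusted p = 0.019). Krt19 differed most among the keratins. It had 49.6 to 154 TPM in organoids (median 88.0) against 18.2, 27.8, 32.6 and 52.8 TPM in tips by stage, and only the E13.5 tip reached the organoid range (1.48 ± 0.31, adjusted p = 7.0e-04). Perp had 4.82 to 39.4 TPM in organoids (median 15.0) against 7.13, 4.86, 3.10 and 5.32 TPM in tips (1.29 ± 0.48, adjusted p = 0.029). Its organoids of 18 to 32 days, at 4.82 to 9.93 TPM, overlapped the tips, and those of 11 to 13 days, at 20.1 to 39.4 TPM, did not. Groups without overlap, organoids above, were found for 3 members, Krt7, Sfn and Lgals3, and for 2102 of the 16779 genes.

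The Krt18 and Perp calls lay near the threshold and were lost when some single tips were left out, while the differences stayed positive. Without the E11.5 tip Krt18 stood at 0.50 (adjusted p = 0.061) and Perp at 1.29 (adjusted p = 0.060), without the E13.5 tip they stood at 0.50 (adjusted p = 0.060) and 1.32 (adjusted p = 0.053), and without the E12.5 tip Perp stood at 1.11 (adjusted p = 0.093). With the organoids of 11 to 13 days alone, Krt18 differed by 0.38 (adjusted p = 0.077). The share of TPM from mitochondrial genes was 11.3 to 15.2% in organoids and 6.54 to 8.29% in tips, without overlap, and its part in the differences was not tested. Tips also carried mesenchyme genes, Col1a1, Col1a2, Col3a1, Dcn and Pdgfra summing to 2.59 to 315 TPM in organoids and 87.3 to 171 TPM in tips. With every library centred on Epcam, Cdh1 and Esrp1, all 7 differences stayed positive and called, from 0.65 for Krt8 to 2.83 for Lgals3. These 3 genes were themselves called, Epcam (-0.62) and Esrp1 (-0.57) lower and Cdh1 (0.88) higher in organoids. The centring therefore cannot show what part epithelial content had. When TPM were rescaled by median ratios, which moved the median of all genes by 0.26, the members' differences ran from 0.85 to 2.97.

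**Figure D1:**
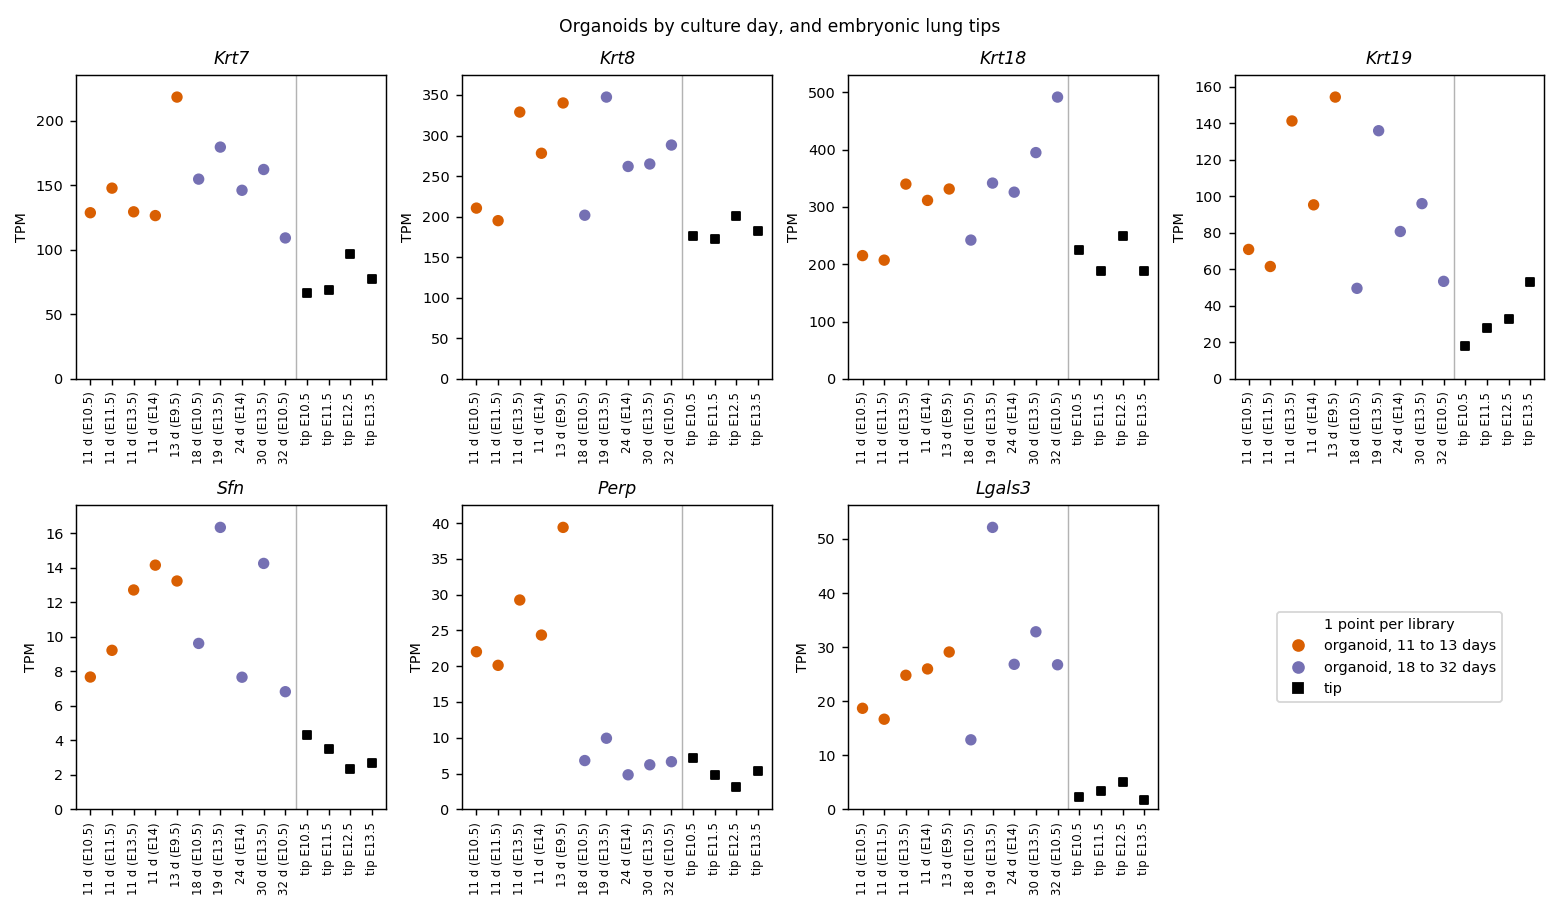
TPM of the 7 members (vertical axes, starting at 0) in 10 organoids ordered by culture day, with the embryonic day of the start in brackets, and in 4 tips by stage. Each point is 1 library; Krt7, Sfn and Lgals3 lie above every tip, and Perp splits into 20.1 to 39.4 TPM up to day 13 and 4.82 to 9.93 TPM from day 18.

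With time in culture, Perp separated from the other 6. The 4 organoids of 11 days had 22.0, 20.1, 29.3 and 24.4 TPM and the one of 13 days 39.4 TPM. From day 18 it had 6.81, 9.93, 4.82, 6.22 and 6.65 TPM at days 18, 19, 24, 30 and 32, with no overlap between the older and the younger organoids. Of 15385 genes, 8.07% likewise lay lower in every older organoid. Over the range of 21 culture days the fitted slope was -2.15 ± 0.44 on the log2 scale (adjusted p = 0.012), and Perp was the 1 member called where 9.64% of all genes were, 6.67% with a negative slope. The tips had 3.10 to 7.13 TPM of Perp.

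Krt18 had a positive slope of 0.70 ± 0.22 that missed the threshold (adjusted p = 0.067), with its highest value, 492 TPM, in the organoid of 32 days. It passed under median-ratio rescaling (0.91, adjusted p = 0.041), without the E13.5 organoid of 11 days (0.81, adjusted p = 0.0498) and without the E9.5 organoid of 13 days (0.77, adjusted p = 0.038). Without the organoid of 32 days it was 0.39 (adjusted p = 0.54), and that library also moved the number of genes called, to 430 without it against 1617 with it. The slopes of Krt7, Krt8, Krt19, Sfn and Lgals3 lay between -0.49 and 0.39 with adjusted p of 0.48 or more. Over a range of 4.5 days in embryonic start stage 0 members were called by limma, where 0.0536% of genes were (9 genes, and 1250 genes with 0 members at an unadjusted p under 0.05). Over 3 embryonic days in the tips 0 members were called, where 0.733% of genes were. Krt19 came nearest, with values that increased stage by stage (1.40 ± 0.61, unadjusted p = 0.038, adjusted p = 0.46), and was the 1 member at an unadjusted p under 0.05. The tips shared that limma fit with the organoids, so its error rests mostly on scatter among organoids.

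Related genes differed in both directions between organoids and tips, where 61.9% of all genes were called and 21.7% were called higher. Of 18 other genes of transitional states, 12 were higher in organoids and 3 lower, with a median difference of 1.77 against -0.20 over all genes. The largest differences were those of Anxa1, a calcium-dependent membrane protein (5.49), the EGF receptor ligand Areg (4.84), the secreted chaperone Clu (4.52) and the stress-induced regulator Nupr1 (4.48). The 3 lower ones, named after their values were seen, were Ccnd1, Fn1 and Trp53. Of 10 desmosome and plakin genes 9 passed the filter, 5 were higher and 2 lower (median 0.77), led upward by the plakin Ppl (1.66), plakoglobin Jup (1.31), plakophilin Pkp3 (1.04) and desmoplakin Dsp (0.96). The 2 lower ones, also named after their values were seen, were Dsg2 (-0.85) and Dsc2 (-1.67), the latter at no more than 4.4 TPM in tips. Of 14 other p53 targets 7 were higher, among them Cdkn1a (2.33), Btg2 (1.69) and Trp53inp1 (1.68), and 3 were lower, among them Aen (-1.71). Of 15 other keratins, mostly of stratified epithelia, 4 passed the filter, and Krt23 (3.12) and Krt80 (1.58) were higher while Krt20 (-1.85) was lower.

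In cultures without FGF10, the growth factor that draws out lung buds, the Krt8 and Krt18 pair, Krt19, Sfn and Lgals3 stood below ALL. Krt19 had 40.9 and 45.6 TPM in ALL-FGF10 against 92.9 and 88.2 TPM in ALL. Krt8 had 143 and 127 TPM in ALL-FGF10 against 267 and 254 TPM in ALL. Krt18 had 153 and 144 TPM in ALL-FGF10 against 264 and 369 TPM in ALL. Each of these 3 keratins was at 0.467 to 0.520 times its ALL mean, with log2 differences of -1.05 ± 0.16 for Krt19, -0.94 ± 0.19 for Krt8 and -1.07 ± 0.22 for Krt18. Sfn had 4.58 and 5.01 TPM in ALL-FGF10 against 11.3 and 18.9 TPM in ALL, and Lgals3 20.9 and 18.0 TPM in ALL-FGF10 against 46.5 and 27.2 TPM in ALL. Groups did not overlap for these 5 members, nor, in the same direction, for 22.5% of all genes. Krt7, at 128 and 134 TPM in ALL-FGF10 against 154 and 124 TPM in ALL, and Perp, at 5.33 and 6.78 TPM in ALL-FGF10 against 6.43 and 3.85 TPM in ALL, overlapped. The 5 mesenchyme genes summed to 1.24 and 0.54 TPM in ALL-FGF10 against 89.1 and 4.69 TPM in ALL, again without overlap, and their part in the lower members was not tested.

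Only Krt19 of the 7 was called in that comparison, where limma called 1.83% of genes. Because values of this 8-library fit guided the choice of members, its calls are given as descriptions, without p-values. Krt19 was no longer called without either ALL-FGF10 replicate or without ALL replicate 2, and the number of members called ran from 0 to 3 as single libraries were left out, the 3 being reached without either ALL-MTG replicate. Over all genes the number called was 271, and it ran from 9 without ALL-FGF10 replicate 2 to 1149 without ALL replicate 1.

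Without MTG the same keratins stood above ALL. Krt8 had 598 and 399 TPM in ALL-MTG against 267 and 254 TPM in ALL. Krt18 had 644 and 444 TPM in ALL-MTG against 264 and 369 TPM in ALL, and Krt19 172 and 153 TPM in ALL-MTG against 92.9 and 88.2 TPM in ALL. The log2 differences were 0.91 ± 0.19, 0.77 ± 0.22 and 0.83 ± 0.16. With Krt7 (0.31 ± 0.16) and Perp (1.23 ± 0.28), 5 members had both ALL-MTG libraries above both ALL libraries, as did 20.8% of all genes. Sfn, at 65.3 and 18.7 TPM in ALL-MTG against 11.3 and 18.9 TPM in ALL, and Lgals3, at 93.3 and 39.9 TPM in ALL-MTG against 46.5 and 27.2 TPM in ALL, overlapped. By limma 0 members were called, where 0.513% of genes were; 76 genes passed and 1924 had an unadjusted p under 0.05. Without ALL-MTG replicate 2, 1 member, Krt8, was called, and the genes called ran from 18 without ALL-FGF10 replicate 1 to 191 without ALL-MTG replicate 2. ALL-MTG replicate 1 was the higher of the 2 for all 7 members and also carried 180 TPM of the 5 mesenchyme genes against 8.16 TPM in replicate 2. ALL replicate 1 and replicate 2 carried 89.1 and 4.69 TPM of them. In ALL-MTG most of the sum was Dcn, at 168 TPM in replicate 1, and Col3a1 and Pdgfra were at 0 in both libraries. ALL replicate 1 had 45.2 TPM of Col3a1, 15.7 TPM of Col1a2 and 7.27 TPM of Pdgfra. The part of these genes, or of other cells, in the keratin and Sfn levels was not tested.

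Without VC the members parted. Perp had 35.7 and 29.3 TPM in ALL-VC against 6.43 and 3.85 TPM in ALL, 6.32 times the ALL mean (2.47 ± 0.28). The unnumbered ALL library, from the 2C set, had 20.3 TPM of Perp. The labels give no culture day for the factor and 2C libraries. Krt19 had 160.3 and 207 TPM in ALL-VC against 92.9 and 88.2 TPM in ALL (1.00 ± 0.16). These 2 members were called, where 0.804% of genes were. In the other direction Sfn had 2.65 and 4.75 TPM in ALL-VC against 11.3 and 18.9 TPM in ALL (-1.77 ± 0.55), and Krt18 had 209.7 and 209 TPM in ALL-VC against 264 and 369 TPM in ALL (-0.57 ± 0.22). Krt8 was little moved, at 289 and 297 TPM in ALL-VC against 267 and 254 TPM in ALL (0.17 ± 0.19), and Krt8 stood at 1.38 and 1.42 times Krt18 in ALL-VC and at 1.01 and 0.689 times Krt18 in ALL. Krt7 (0.06 ± 0.16) and Lgals3 (-0.12 ± 0.40) overlapped. The other members did not, with 3 above ALL, as were 33.8% of 13502 genes, and 2 below, as were 1826 genes. The mesenchyme genes summed to 0.87 and 1.16 TPM in ALL-VC against 89.1 and 4.69 TPM in ALL, and their part was not tested. The Krt19 call was lost in 7 of the 8 fits that left out 1 library (all but the one without ALL replicate 1), and 0 members were called without either ALL-VC replicate. Over all genes the number called was 119, and it ran from 8 without ALL-VC replicate 1 to 1309 without ALL replicate 1.

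Set against each other, the omissions of FGF10 and MTG separated every member. All 7 were lower in both ALL-FGF10 libraries than in both ALL-MTG libraries, as were 27.5% of all genes. The 5 mesenchyme genes summed to 1.24 and 0.54 TPM in ALL-FGF10 against 180 and 8.16 TPM in ALL-MTG, and their part was not tested. Dcn made most of the ALL-MTG sums, at 168 and 6.57 TPM. By limma 4 members were called where 3.52% of genes were. Krt8 (-1.85 ± 0.19), Krt18 (-1.85 ± 0.22) and Krt19 (-1.88 ± 0.16) were each at 0.266 to 0.272 times their ALL-MTG mean, and Sfn (-2.64 ± 0.55) at 0.114 times. Lgals3 (-1.61 ± 0.40), Perp (-1.005 ± 0.279) and Krt7 (-0.39 ± 0.16) completed the order. The Sfn difference was -1.77 without ALL-MTG replicate 1, and its call was lost in every fit that left out 1 library other than ALL-MTG replicate 2. The number of members called was 0 without ALL-FGF10 replicate 1, 1 without ALL-FGF10 replicate 2 and at most 5, and that of all genes ran from 19 without ALL-FGF10 replicate 1 to 838 without ALL replicate 2. Against ALL-VC, 6 members were lower in both ALL-FGF10 libraries, as were 38.1% of all genes, and Krt8 (-1.11 ± 0.19), Krt19 (-2.05 ± 0.16) and Perp (-2.25 ± 0.28) were called where 3.82% of genes were; 1 of the 3 remained without any 1 of the ALL-FGF10 and ALL-VC libraries, and the genes called ran from 15 without ALL-FGF10 replicate 2 to 966 without ALL replicate 1. ALL-MTG against ALL-VC gave 0 members called by limma where 0.547% of genes were (81 genes, with 1930 at an unadjusted p under 0.05). There Sfn (2.98 ± 0.55) and Krt18 (1.35 ± 0.22) had the largest positive differences and Perp a negative one (-1.24 ± 0.28). Without ALL-MTG replicate 2 it gave 3 members, Krt8, Krt18 and Sfn, and 204 genes in all, and 6 genes without ALL-VC replicate 1. These contrasts share libraries with those against ALL.

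Of the 18 other transitional genes 6 were called lower in ALL-FGF10 than in ALL-MTG, where 3.52% of all genes were called in either direction. Their median was -1.60 over the 18, against 0.03 over all genes. The largest differences were those of the tight junction gene Cldn4 (-4.35), Areg (-2.90), the YAP target Ccn2 (-2.54) and Clu (-2.33). The keratin Krt80 was lower as well (-2.93). Against ALL, Cldn4 was the 1 of 18 called both in ALL-FGF10 (-2.28) and in ALL-MTG (2.07), and in ALL-VC it was the p53 target and cell-cycle inhibitor Cdkn1a (1.73), while Krt23 was lower there (-3.09). The shares of all genes called were 1.83% in ALL-FGF10, 0.513% in ALL-MTG and 0.804% in ALL-VC. The lists were chosen with earlier results of these data known, so their calls are descriptions as well.

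**Figure D2:**
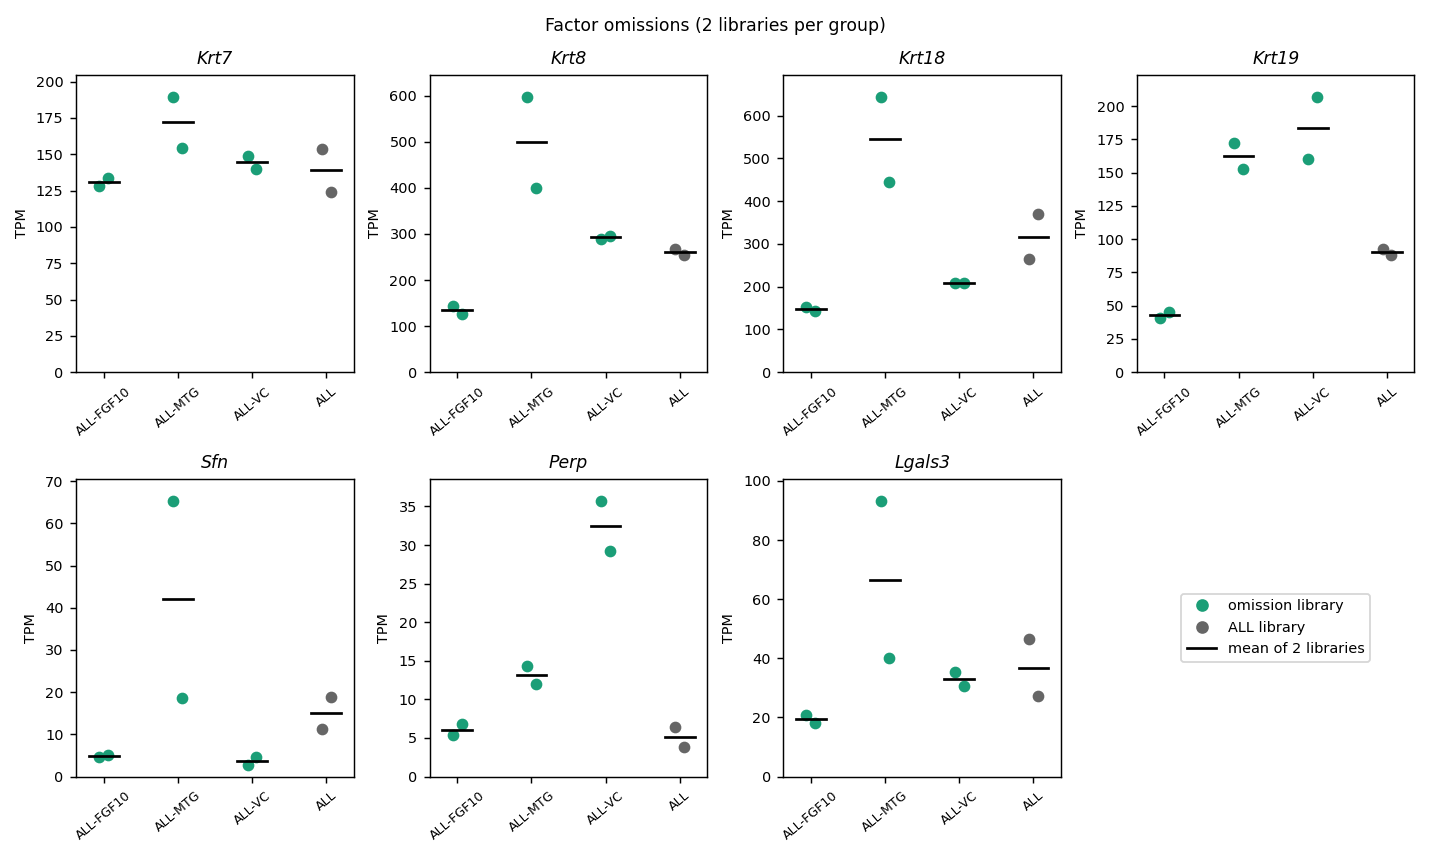
TPM of the 7 members (vertical axes, starting at 0) in ALL-FGF10, ALL-MTG, ALL-VC and ALL. Points are the 2 libraries of a group and bars their mean; ALL-FGF10 lies below ALL-MTG for all 7 members, and Perp at 35.7 and 29.3 TPM stands out in ALL-VC.

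Adding the factors to 2C was measured in a table of its own with 1 library a condition, so no test was possible. A gene was taken to pass the fold when its log2(TPM + 1) values lay 1 or more apart and the higher library had at least 5 TPM. With F10 all 7 members were higher than in 2C by 0.39 to 0.94 on the log2 scale. Krt8 had 655 TPM in 2C+F10 against 459.9 TPM in 2C, and Krt18 had 645 TPM in 2C+F10 against 434 TPM in 2C. Krt19 had 409.98 TPM in 2C+F10 against 289.57 TPM in 2C, and Sfn 32.5 TPM in 2C+F10 against 16.5 TPM in 2C. None of the 7 passed the fold, which 5.90% of genes did. The mesenchyme genes summed to 94.1 TPM in 2C+F10 against 3.48 TPM in 2C, and their part in the difference was not tested.

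With MTG, 6 of 7 members were lower than in 2C. Krt19 had 101 TPM in 2C+MTG against 289.57 TPM in 2C (-1.51), Lgals3 18.5 TPM in 2C+MTG against 49.8 TPM in 2C (-1.38) and Sfn 6.48 TPM in 2C+MTG against 16.5 TPM in 2C (-1.22), and these 3 passed the fold, as did 7.52% of genes in either direction and 4.93% downward. Krt8 and Krt18 were at 0.576 and 0.594 times their 2C level, and Perp alone was slightly higher, at 55.4 TPM in 2C+MTG against 50.5 TPM in 2C. Of the other transitional genes that could be counted, 16 of 18, 5 were lower, among them Nupr1 (-3.80), Anxa1 (-1.89) and the urokinase receptor Plaur (-1.46), and 1, Clu, was higher (3.74).

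With VC 0 of 7 members passed the fold, which 9.61% of genes did. Sfn had 31.1 TPM in 2C+VC against 16.5 TPM in 2C and Lgals3 73.7 TPM in 2C+VC against 49.8 TPM in 2C. Perp had 42.3 TPM in 2C+VC against 50.5 TPM in 2C, and Krt8 420.4 TPM in 2C+VC against 459.9 TPM in 2C. The unnumbered ALL library stood lower than 2C for 3 members by more than the fold. Krt8 had 183 TPM in ALL against 459.9 TPM in 2C, Krt19 78.4 TPM in ALL against 289.57 TPM in 2C and Perp 20.3 TPM in ALL against 50.5 TPM in 2C. These 3 passed the fold, as did 12.3% of genes in either direction and 7.44% downward. Rescaled by median ratios, which moved the median of all genes by 0.28 in that pair, Perp no longer passed (-0.999), and the small differences of Krt7 (0.19) and Sfn (0.13) became positive. The 3 additions and ALL share the single 2C library as their reference, so their values are given side by side only.

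Omission and addition used separate libraries. Omission values helped to guide the choice of members, so the counts of members are descriptions and test nothing against the shares of all genes. For FGF10, 6 of 7 members differed in opposite directions on omission and addition, as did 57.8% of 10567 genes. Perp was the exception, and Krt7 was counted with an omission difference of -0.08 and overlapping groups. For MTG it was again 6 of 7, with Perp the exception, against 55.2% of 10465 genes. For VC it was 4 of 7, against 65.4% of 10662 genes. Krt19, for example, stood at -1.05 on omission of FGF10 and at 0.50 on its addition, and at 0.83 on omission of MTG and at -1.51 on its addition.

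**Figure D3:**
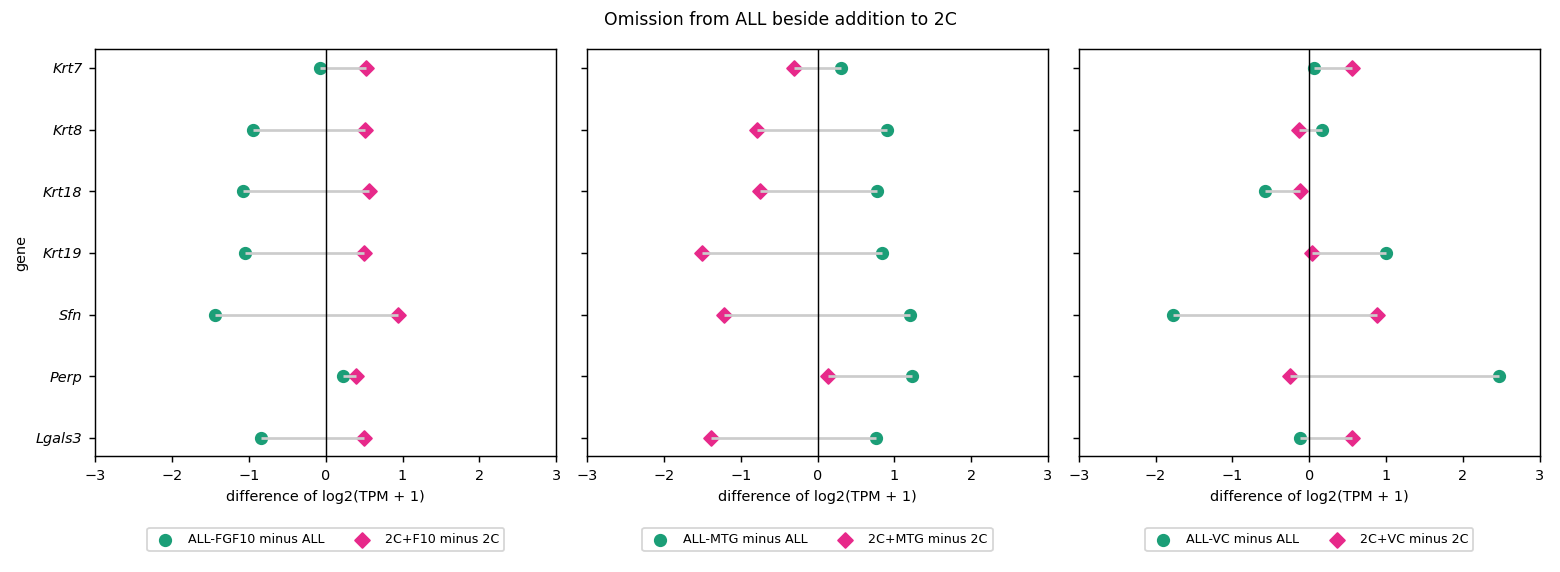
Difference of log2(TPM + 1) for each member (rows) on omission from ALL (circles, means of 2 libraries a group) and on addition to 2C (diamonds, 1 library each), for FGF10, MTG and VC. For FGF10 and MTG, 6 of 7 members have their circle and diamond on opposite sides of 0.

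In the LO series Krt8, Krt18 and Krt19 kept similar levels over time. Krt7 was higher at each step, with 140, 157 and 186 TPM at days 8, 11 and 18, but under the fold. Krt8 had 246, 255 and 222 TPM at days 8, 11 and 18, Krt18 had 233, 271 and 244 TPM, and Krt19 had 45.6, 43.6 and 47.2 TPM. Between days 8 and 11, 0 members passed the fold, which 5.25% of genes did; Lgals3 came nearest, at 14.7 TPM on day 11 against 7.60 TPM on day 8. Perp had 45.6, 43.7 and 7.99 TPM at days 8, 11 and 18, and it was the 1 member past the fold between days 18 and 11 (-2.31), where 14.1% of genes passed and 7.77% were lower. In the organoids, too, the lower Perp values began with the library of 18 days.

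With DCI at day 11, 6 of 7 members passed the fold upward, in a pair where 24.2% of genes passed it in either direction and 11.2% upward. Krt19 had 735 TPM with DCI against 43.6 TPM without, 16.8-fold higher, and became the most abundant keratin. Sfn had 119 TPM with DCI against 10.2 TPM without (11.6-fold), and Lgals3 136 TPM with DCI against 14.7 TPM without (9.25-fold). The type II keratins differed less, Krt7 with 492 TPM with DCI against 157 TPM without and Krt8 with 546 TPM with DCI against 255 TPM without. Perp had 111 TPM with DCI against 43.7 TPM without. Krt18 had 405 TPM with DCI against 271 TPM without (log2 difference 0.58), under the fold. The median difference of the 7 was 1.64, against -0.08 over all genes.

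Of the 17 other transitional genes counted in that pair 11 were higher and 1 lower (median 1.85), led by Nupr1 (6.00), the cornified envelope gene Sprr1a (5.11) and the stress-induced Ndrg1 (3.91), with Clu lower (-4.52). Of 11 other p53 targets counted, 4 were higher: Sesn2 (2.49), Cdkn1a (2.29), Btg2 (1.34) and Bbc3 (1.32). Krt80 was higher too (3.47). Of the mesothelium markers Msln had 277 TPM with DCI against 6.19 TPM without, while Wt1, Upk3b and Lrrn4 were at 0 with DCI, and the part of such cells was not tested. The mesenchyme genes summed to 62.7 TPM with DCI and 68.1 TPM without, but single genes differed in both directions. Pdgfra had 14.7 TPM with DCI against 0.03 TPM without. Dcn had 0.66 TPM with DCI against 34.4 TPM without. Of the 5 genes, 1 passed the fold upward and 1 downward, and their part was not tested. The endothelium, basal cell and macrophage lists each summed to 2.49 TPM or less with DCI.

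**Figure D4:**
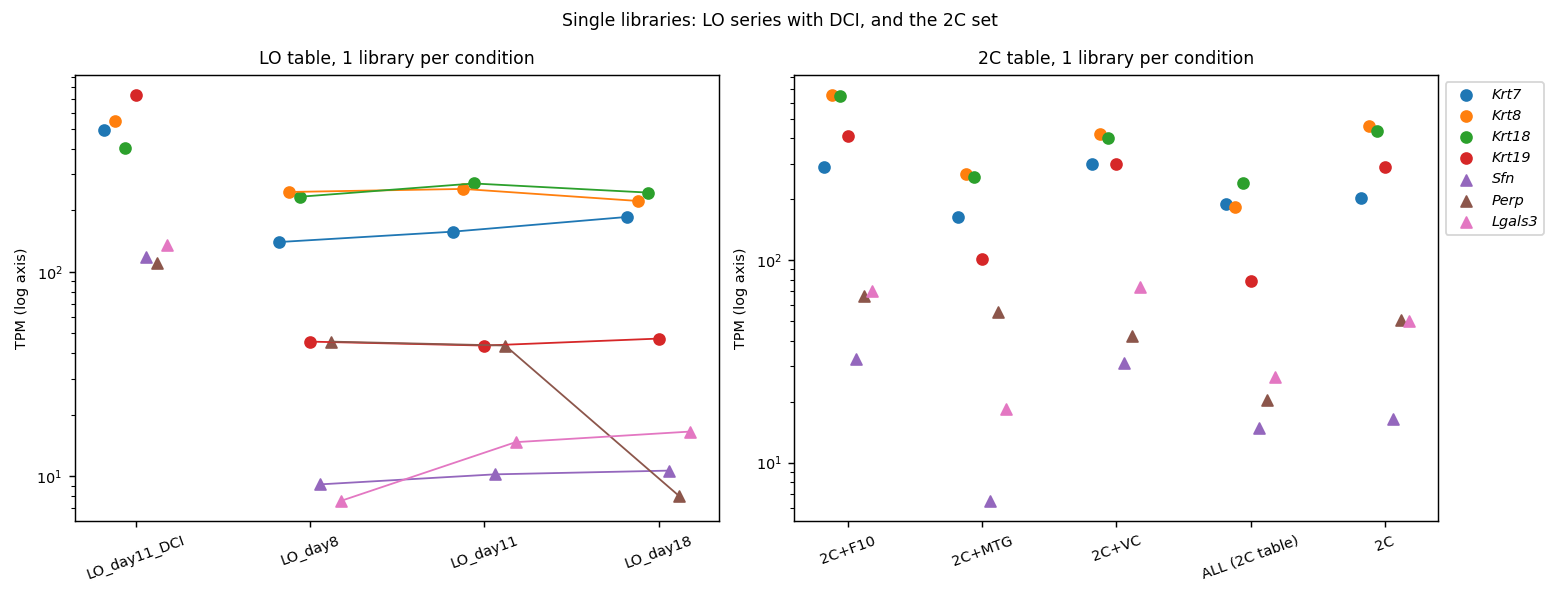
TPM of the 7 members on a log axis in the LO libraries (left; lines join days 8, 11 and 18) and in the 2C table (right), 1 library per condition. Krt19 is at 735 TPM with DCI against 43.6 TPM at day 11 without, and Perp is at 7.99 TPM on day 18.

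Among pieces of organoid, every member was lowest in the same piece. Krt19 ran from 84.0 to 369 TPM over the 8 pieces (median 327) and was at 138 TPM in the intact organoid. Sfn ran from 15.8 to 47.0 TPM (median 37.2) with 10.51 TPM in the intact organoid, and Lgals3 from 36.0 to 154 TPM (median 109) with 55.8 TPM in the intact organoid. Krt8 ran from 242 to 527 TPM (median 443), Krt18 from 282 to 453 TPM (median 387), Krt7 from 157 to 342 TPM (median 230.0) and Perp from 7.79 to 14.8 TPM (median 11.0). The intact organoid had 234.5 TPM of Krt8, 231 of Krt18, 134 of Krt7 and 3.68 of Perp, under every piece for Krt7, Krt8, Krt18, Sfn and Perp. Of the pieces the one labelled up-half was the lowest for all 7 members. Its sum of the 5 mesenchyme genes was also the highest, at 32.5 TPM. The other pieces had 2.63 to 20.0 TPM and the intact organoid 0.39 TPM. Dcn alone made 29.7 TPM of the up-half sum. Col1a1 and Col3a1 were highest in other pieces, at 8.76 and 5.02 TPM. The part of these differences was not tested.

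Position and size of the pieces gave no call. By limma 0 members and 0% of 15017 genes were called for up against down, for left against right (0%) and for the smaller against the larger pieces (0%), with 663, 463 and 799 genes at an unadjusted p under 0.05. Krt19 was the 1 member at that level, lower in up pieces than in down pieces (-0.92 ± 0.38, unadjusted p = 0.040, adjusted p = 1). All 7 members had negative estimates for up minus down, with a median of -0.49 against -0.08 over all genes. The sign for Krt8, Krt18 and Perp depended on the up-half piece. Without it Krt8 (0.05), Krt18 (0.09) and Perp (0.01) were positive, while Krt19 (-0.40) and Lgals3 (-0.14) stayed negative. The up-half-right piece was above the down-half-right piece for 6 members, all but Krt7, among them Krt8 with 527 TPM in up-half-right against 481 TPM in down-half-right. Krt18 was also positive under median-ratio rescaling (0.01). Every estimate rests on 8 pieces of unknown origin, since the labels do not say whether the pieces came from 1 organoid.

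**Figure D5:**
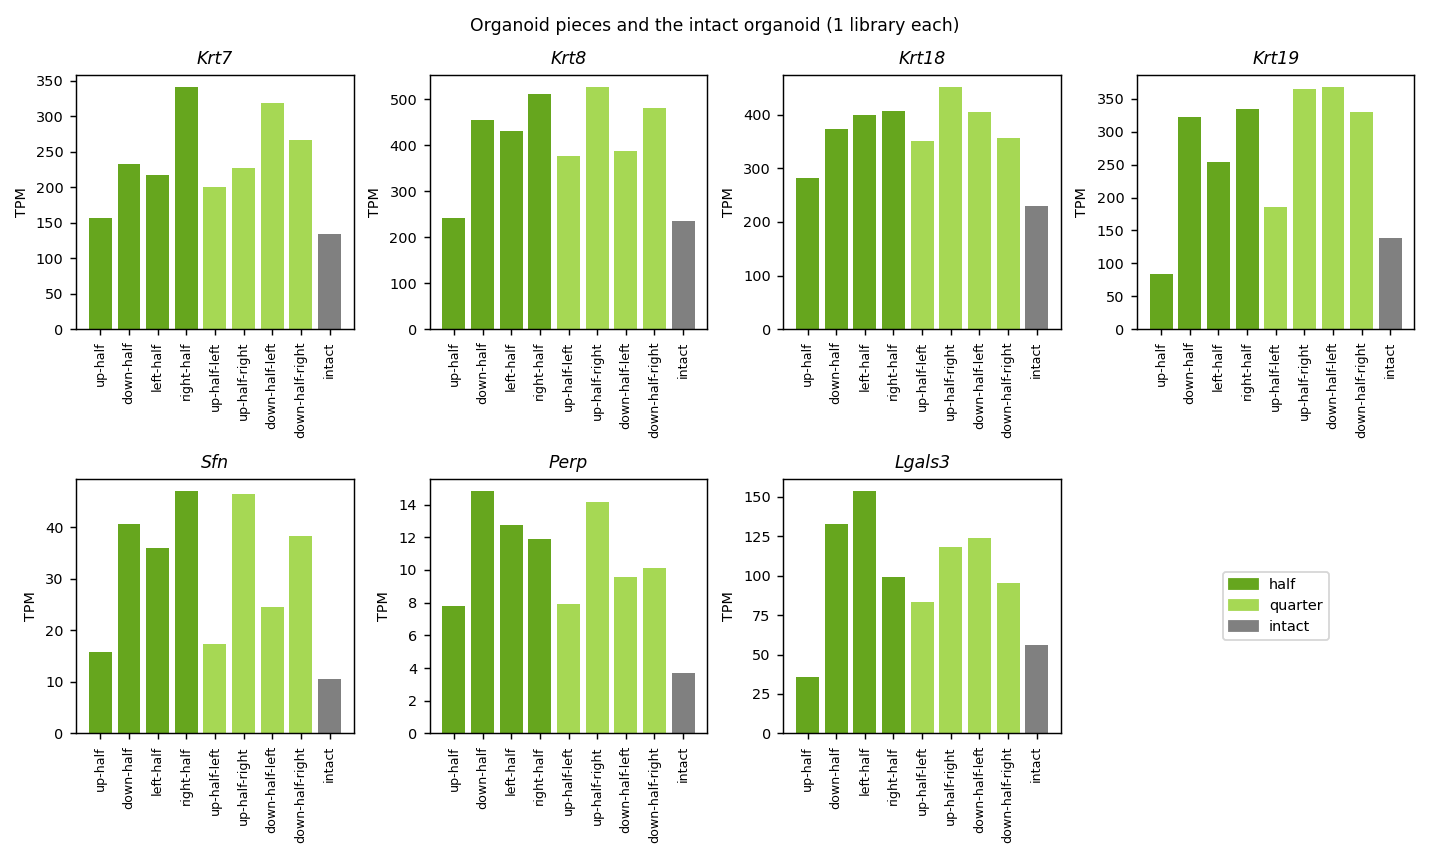
TPM of the 7 members (bars from 0) in the 8 pieces and the intact organoid, 1 library each. The intact organoid and the up-half piece are the lowest of the 9 for Krt7, Krt8, Krt18, Sfn and Perp.

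Within the factor libraries (n = 8), the organoids (n = 10) and the pieces with the intact organoid (n = 9), Pearson correlations of log2(TPM + 1) describe how the members travelled together. Libraries of a set share a table and, in part, a condition. Values of the factor libraries also guided the choice of members, so these are descriptions. Krt8 and Krt18 had r of 0.89, 0.72 and 0.91 in the 3 sets. Krt8 with Krt19 had 0.86, 0.81 and 0.90, and Krt8 with Lgals3 0.91, 0.82 and 0.82. Perp followed Krt18 in 1 set only: with Krt18 it had r of 0.04 in the factor libraries and -0.33 in the organoids, and 0.89 in the pieces.

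Likeness was taken as the lowest of the 3 correlations, over 9855 genes. Krt8 was most like Tnfrsf12a, the receptor of the cytokine TWEAK (0.87), followed by the small heat shock gene Hspb8 (0.85) and Lgals3 (0.82). Krt8 was in turn the closest gene to Krt19 (0.81) and to Lgals3 (0.82), with Hspb8 second for both (0.80 and 0.80) and 1810058I24Rik (0.78) and Tnfrsf12a (0.79) next. Krt18 was most like Slc3a2, an amino acid transporter subunit (0.82), then Cldn4 (0.78) and Osgin1 (0.77). Krt7 was most like the actin-binding genes Cnn2 (0.81) and Coro1c (0.70) and like Acot9 (0.70). Sfn was most like the myosin light chain gene Myl12a (0.83), the sulfiredoxin gene Srxn1 (0.80) and Cbr3 (0.78), and Perp like the caveolar gene Cavin1 (0.82), S100a10 (0.78) and Dctn1 (0.78).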

How the data were processed

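Total RNA of organoids, pieces and tips was taken up in TRIzol and sequenced from mRNA libraries, per the labels' protocols. The authors deposited 5 tables of gene-level TPM. RSEM, Bowtie2 and mm10 are named, without versions, per the submitters' processing notes. TPM keep no depth, so no counting interval was computed. Titles gave 40 columns a sample, and 1 column was not used.

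Genes with at least 1 TPM in at least 2 libraries of a fit were tested on log2(TPM + 1), a scale that understates changes of low genes, with limma 3.58.1 in R 4.3.3 (eBayes with a trend, two-sided, Benjamini-Hochberg over all genes kept, called at adjusted p under 0.05). The 8 factor libraries shared 1 fit, the 14 organoid and tip libraries another, with a further one for slopes on culture day, start stage and tip stage, and the 8 pieces and intact organoid a fit with terms for up, left, size and intact. For slopes and pieces most settings have 1 library, so residual scatter takes the place of replicates. The limma steps were tested on simulated data. Single libraries were compared by fold alone, among genes with 5 TPM or more in the higher library.

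Members and lists were chosen with earlier results of these data known. Besides the members, up to 4 called genes of each list per comparison were named, those with the largest difference and at least 5 TPM in a library, and the 3 genes most like each member, among genes averaging at least 5 TPM in 3 tables. Coordinates come from GENCODE M21 on GRCm38, promoters from RefSeq. Alternatives were a pseudocount of 0.1 TPM, no filter (genes above 0 TPM somewhere), median-ratio rescaling, a replicate block, only the 2 groups compared, and each library left out. Figures used Python 3.11.15 with matplotlib 3.10.9.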

Additional observations from a re-analysis of the deposited data

Results flagged for a closer look

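Lgals3 in the organoid grown for 19 days from E13.5 was 52.14 TPM, apart from the other 9 organoids, of which the next had 32.8 TPM. The gap was 0.491 of the range over the 10 organoids, beyond the 95% critical value of Dixon's test. Of the 21 groups of member values tested in this way 1 stood apart, and chance alone sets apart about 1 in 20. That library also had the highest Krt8 and Sfn of the organoids, at 347 and 16.4 TPM.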

How the results depend on the processing

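Of 1435 single member values recomputed, 1319 kept direction and side of the threshold, 54 lost a call, 21 gained one, 41 moved otherwise, and 0 called values turned round. Replicate numbers did not pair the factor libraries: deviations of same-numbered libraries correlated by -0.070 to 0.114. With a replicate block the members called were 0 for ALL-FGF10 and 1 for ALL-VC against ALL (1 and 2 without it), and genes called 143, 48 and 68 for ALL-FGF10, ALL-MTG and ALL-VC against ALL (271, 76 and 119 without it) and 45 for ALL-MTG against ALL-VC. With only the 2 groups compared, members called were 0, 0 and 5 for ALL-FGF10 against ALL, ALL-VC against ALL and ALL-FGF10 against ALL-VC, and genes called 166, 11, 51, 2158 and 18 for ALL-FGF10, ALL-MTG and ALL-VC against ALL and ALL-FGF10 and ALL-MTG against ALL-VC. A pseudocount of 0.1 TPM left 1 member in ALL-VC against ALL, 177 genes in ALL-FGF10 against ALL and 25 for tip stage. With no filter ALL-VC against ALL had 0 members and 27 genes, ALL-MTG against ALL 7 and against ALL-VC 22, tip stage 335 and start stage 3. Median-ratio rescaling gave 2 members in ALL-FGF10 against ALL, 1 of 7 in ALL-VC against ALL with 190 genes, and 2 for culture day. It moved the share of calls that were higher to 49.1% from 35.0% for organoids against tips, to 59.8% from 30.8% for culture day, to 61.3% from 50.8% for ALL-FGF10 against ALL-VC, to 61.6% from 39.7% for ALL against 2C, to 55.9% from 44.9% for LO day 18 against 11 and to 55.6% from 45.3% for day 11 against 8. Without a minimum TPM, genes past the fold were 1428, 2715 and 4163 for LO day 11 against 8, day 18 against 11 and DCI, and 1480, 1714, 2030 and 2426 for F10, MTG, VC and ALL against 2C.

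Leaving out 1 library gave members called of 0 to 3, 0 to 1 and 0 to 2 for ALL-FGF10, ALL-MTG and ALL-VC against ALL, 0 to 5 for ALL-FGF10 against ALL-MTG, 1 to 3 for ALL-FGF10 against ALL-VC, 0 to 3 for ALL-MTG against ALL-VC, 5 to 7 for organoids against tips and 1 to 2 for culture day. Genes called were 9 to 1149, 18 to 191 and 8 to 1309 for the 3 omissions against ALL, 19 to 838, 15 to 966 and 6 to 204 for the 3 contrasts among them, 430 to 1825 for culture day (430 without the organoid of 32 days), 2 to 10 for start stage, 14 to 120 for tip stage, and 0 to 1, 0 to 1 and 0 to 6 for position up, position left and size of pieces. The cause of these moves was not tested, apart from fewer libraries in the fit. Where leaving out 1 library left a group with 1, that library was assumed to vary like the others. TPM hold no depth, so counting error of the scarce members, such as Sfn and Perp, could not be set beside these spreads.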

Other observations

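The alveolar genes also differed in these comparisons. In organoids against tips all 8 AT2 genes were called higher by limma, led by the surfactant protein gene Sftpc (log2 difference 9.81), the phosphate transporter gene Slc34a2 (9.31), Lamp3 (7.80) and the surfactant gene Sftpb (6.27). In that comparison 61.9% of all genes were called and 21.7% were called higher. Of 8 AT1 genes 7 were higher, led by the water channel gene Aqp5 (5.35), Ager (5.19), Hopx (4.36) and Clic5 (3.64), and 1, Pdpn, was lower (-1.30). Between the omissions the direction was the other way from the keratins: ALL-FGF10 had 4 of 8 AT2 genes called above ALL-MTG (Sftpa1 2.41, Slc34a2 2.20, Abca3 0.93 and Lamp3 0.80) and 0 called below, in a fit where Krt8, Krt18, Krt19 and Sfn were lower. Of all genes 3.52% were called in that contrast. Pdpn was lower in ALL-VC than in ALL (-3.69), the 1 of 8 AT1 genes called there, where 0.804% of all genes were called.

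In the LO libraries 7 of 8 AT2 genes passed the fold upward between days 8 and 11 and 8 of 8 between days 11 and 18, while 6 of 7 members did not pass it in either step and Perp passed it downward in the second. Of all genes 5.25% passed it in the first step and 14.1% in the second, in either direction. With DCI at day 11, 8 of 8 AT1 and 7 of 8 AT2 genes passed the fold upward together with 6 of 7 members. In that pair 24.2% of all genes passed it in either direction and 11.2% upward.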
